A study of Mus musculus with 6 samples.

Results

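The genes described here encode isozymes of 5 steps of glycolysis, and were chosen by name: the hexokinases Hk1, Hk2 and Hk3, the phosphofructokinases Pfkl and Pfkp, the aldolase Aldoa, the pyruvate kinase Pkm and the lactate dehydrogenase subunits Ldha and Ldhb. All 9 were among the 17975 genes of the table and all 9 passed the filter on low counts, which kept 13805 genes for testing. RNA was sequenced from whole livers of 3 WT mice and 3 Hom mice, 1 liver per mouse. Hom mice carried NEK7 fl/fl alleles together with Alb-Cre+, so that Cre was driven by the albumin promoter in hepatocytes while the other cells of the liver kept the gene. The WT mice came from the same breeding scheme, which on a C57BL/6 background combines the floxed allele and Alb-Cre, and whether each WT liver carried the floxed alleles or Cre was not stated. All 6 livers came without any treatment named in the labels, and the age and sex of each of the 6 mice were not used here. The study states in general that mice of 6 to 10 weeks were used, of both sexes in work on knock-out mice. It also states that controls were matched for age and sex. Liver fibrosis in Hom mice is described there at 5 months, so the range need not hold for these 6 livers. The Y-linked genes below do not bear out a sex match. The comparison asks how the isozyme make-up of glycolysis differed between livers with and without NEK7 in hepatocytes.

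Glycolysis splits glucose into pyruvate, and several of its steps are run by alternative enzymes from different genes. Adult hepatocytes typically make pyruvate with the liver and red cell pyruvate kinase (Pklr), while many proliferating, fetal and non-parenchymal cells use Hk2, Aldoa and Pkm. Pfkl and Ldha do not fall on the proliferative side alone, since Pfkl is the liver-type phosphofructokinase and Ldha encodes the main lactate dehydrogenase subunit of liver. In WT livers Ldha supplied 99.4% ± 0.136 (SD, n = 3) of the TPM of its step and Pfkl 56.5% ± 1.77, whereas Pkm made up 16.0% ± 4.51 beside Pklr. Not every level followed that division, since Aldoa was at a mean of 110 TPM and Pklr at 101 TPM. TPM, a level per gene length that sums to the same total in each liver, is used here to compare genes with each other. Livers are compared in CPM, counts relative to a library size that is scaled with TMM factors, which correct for differences in library composition.

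The regions just upstream of the gene starts are shown for 4 of the members whose mRNA differed between groups. They differ in the number of copies of ACGTG, the core of the element to which hypoxia-inducible factors bind. Only windows that hold ACGTG are shown, which leaves out Pfkl, the other member called. Each run is the 250 bases before a transcription start in RefSeq on GRCm38.p6, which is not the build that the submitters name, and is written 5′ to 3′ on the strand of the gene with ACGTG, read on either strand, in capitals. The windows are Hk2 at chr6:82774455-82774704 (minus strand), Ldha at chr7:46845554-46845803 (plus strand), Aldoa at chr7:126799255-126799504 (minus strand) and Pkm at chr9:59656977-59657226 (plus strand).
Hk2: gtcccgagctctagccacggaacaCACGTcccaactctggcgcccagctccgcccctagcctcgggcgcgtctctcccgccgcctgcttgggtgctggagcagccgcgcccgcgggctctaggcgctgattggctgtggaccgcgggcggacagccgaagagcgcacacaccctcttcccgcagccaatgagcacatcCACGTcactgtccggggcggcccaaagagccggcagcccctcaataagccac
Ldha: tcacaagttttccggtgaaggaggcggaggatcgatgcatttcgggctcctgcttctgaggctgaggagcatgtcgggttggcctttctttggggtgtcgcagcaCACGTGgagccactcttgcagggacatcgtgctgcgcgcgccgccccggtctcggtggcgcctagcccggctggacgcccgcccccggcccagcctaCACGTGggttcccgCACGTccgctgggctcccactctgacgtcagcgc
Aldoa: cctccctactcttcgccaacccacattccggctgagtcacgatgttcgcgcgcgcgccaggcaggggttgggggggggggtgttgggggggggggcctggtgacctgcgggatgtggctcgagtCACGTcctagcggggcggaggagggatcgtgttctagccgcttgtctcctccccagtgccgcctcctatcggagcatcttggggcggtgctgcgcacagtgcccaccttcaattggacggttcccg
Pkm: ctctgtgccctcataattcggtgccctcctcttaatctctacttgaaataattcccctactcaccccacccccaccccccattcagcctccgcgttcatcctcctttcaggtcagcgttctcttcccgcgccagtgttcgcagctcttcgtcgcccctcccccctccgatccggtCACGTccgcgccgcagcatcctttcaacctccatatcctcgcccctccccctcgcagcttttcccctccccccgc

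The Hk2 window held 2 copies, starting 226 and 52 bases before the gene start, and the Aldoa and Pkm windows held 1 copy each, 126 and 75 bases before it. The Ldha window held 3 capital runs, and 2 of them read CACGTG, the E-box, which contains ACGTG on both strands. Over all 9 members, which together have 14 start sites in RefSeq, 6 windows from 5 genes contained ACGTG, the fifth gene being Hk3, and the Aldoa windows with it overlap and share 1 site. Of all 32851 promoter windows of the same length, 16.6% contained ACGTG and 6.02% contained CACGTG. The upstream windows of Hk1, Pfkl, Pfkp and Ldhb did not contain the letters, which says nothing of other regions of these genes. Ldha, Pkm and Aldoa each have a further start site whose window did not contain them and is not shown. A match is a description of the sequence and not a measured binding site.

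The 6 libraries had similar depth, 19349400 to 19730200 estimated counts in all. Nek7 itself was at 62.9 to 69.1 CPM in the WT livers and at 14.5 to 18.1 CPM in the Hom livers, and the Hom mean was 25.2% of the WT mean. Hom livers differed in composition from WT livers: TMM factors were 0.81 to 0.92 in WT and 1.09 to 1.23 in Hom, and without them the median log2 fold change over all tested genes was 0.45 in place of -0.0018. The Y-linked genes Ddx3y and Kdm5d were at 0 counts in the Hom liver of replicate 1, against 243 or more in the remaining livers. By these genes the WT and Hom livers were not matched for sex. Hepatocyte markers were the most abundant of the cell type lists in every liver, and their summed level was 131860 to 187022 TPM in WT and 122422 to 146319 TPM in Hom.

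By edgeR's test, 4 of the 9 isozyme genes were higher in Hom livers (Hk2, Pkm, Aldoa and Pfkl) and 1 was lower (Ldha), while Hk1, Pfkp, Hk3 and Ldhb did not pass. Among all 13805 genes, 21.5% were called higher and 20.1% lower. In CPM, every Hom liver lay above every WT liver for 6 members (the 4 called higher, Hk1 and Pfkp) and below every WT liver for Ldha, against 28.7% and 27% of all genes. The members' median log2 fold change, Hom minus WT, was 0.53. With library size alone as the scale, 6 members were called higher and 0 lower, the members' median was 0.97 and 47.6% of all genes were higher, so that each difference below is read relative to the scaling. Of all called genes, 51.7% were higher with TMM factors and 91.1% with library size alone.

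**Figure D1:**
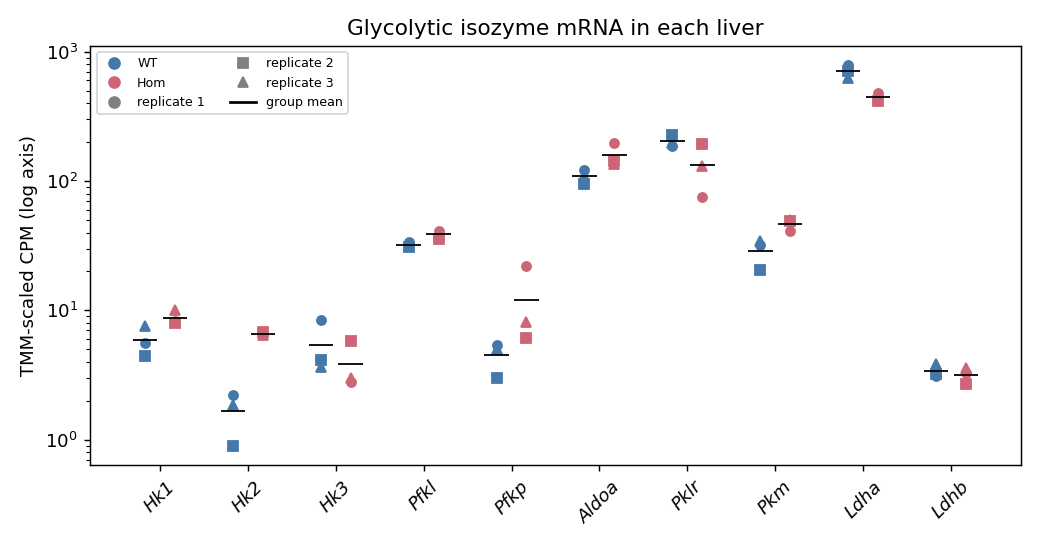
TMM-scaled CPM (log axis) of the 9 isozyme genes and of Pklr in each of 3 WT and 3 Hom livers. Symbols mark the replicate and black lines the group mean, and the 3 Hom values of Hk2 sit together between 6.42 and 6.76 CPM, above the WT values of 0.898 to 2.23 CPM.

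Hexokinases trap glucose in the cell as glucose 6-phosphate, and Hk2 is the high-affinity form of muscle, fat and many tumors. Hk2 was at 2.23, 0.898 and 1.84 CPM in WT replicates 1, 2 and 3 and at 6.67, 6.76 and 6.42 CPM in the Hom replicates. All Hom livers were above all WT livers, and the 3 Hom values were close to each other. Hk2 rose 3.99-fold, from 1.66 ± 0.687 to 6.62 ± 0.176 CPM (SD, n = 3 each), a log2 fold change of 1.99 ± 0.31 (SE, adjusted p = 0.0033, edgeR quasi-likelihood test). It was called in each setting tried, and had the largest log2 fold change of the 9 members. The counts behind it were low, 14 to 40 per WT liver and 143 to 164 per Hom liver. In whole liver, more cells of a type that expresses a gene and more of its RNA per cell cannot be told apart, nor can fewer cells and less RNA per cell, and this holds for every gene below.

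Hk1 is the widely expressed hexokinase that binds mitochondria. Its level was 5.58, 4.43 and 7.62 CPM in the WT livers and 8.31, 8.04 and 10.1 CPM in the Hom livers, in replicate order. The groups did not overlap, but WT replicate 3 came within a small distance of Hom replicate 2. The log2 fold change was 0.58 ± 0.22 (SE) with a 95% confidence interval of 0.064 to 1.10, and the adjusted p from edgeR was 0.0701. Hk1 passed the threshold with upper-quartile factors (log2 fold change 0.67, adjusted p = 0.0482, edgeR), with library size alone (1.04, adjusted p = 0.0108), with the replicate number as a block (0.61, adjusted p = 0.0456) and without WT replicate 3 (0.81, adjusted p = 0.0248).

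Hk3, the hexokinase of myeloid cells, was at 8.49, 4.17 and 3.63 CPM in WT replicates 1, 2 and 3 and at 2.80, 5.77 and 3.02 CPM in the Hom replicates. The groups overlapped, with WT replicate 1 highest and Hom replicate 2 next. The log2 fold change was -0.49 ± 0.42 (SE, 95% confidence interval -1.48 to 0.50, adjusted p = 0.375, edgeR), and it was -0.014 without WT replicate 1 (adjusted p = 0.979) and -0.90 without Hom replicate 2 (adjusted p = 0.153). The same pair of livers was highest in neutrophil markers. Summed over 9 neutrophil markers and in replicate order, the WT livers were at 417, 9.48 and 22.4 TPM and the Hom livers at 65.2, 238 and 62.0 TPM, and none of the 6 neutrophil markers that could be tested was called in either direction. Their part in the Hk3 level was not tested.

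**Figure D2:**
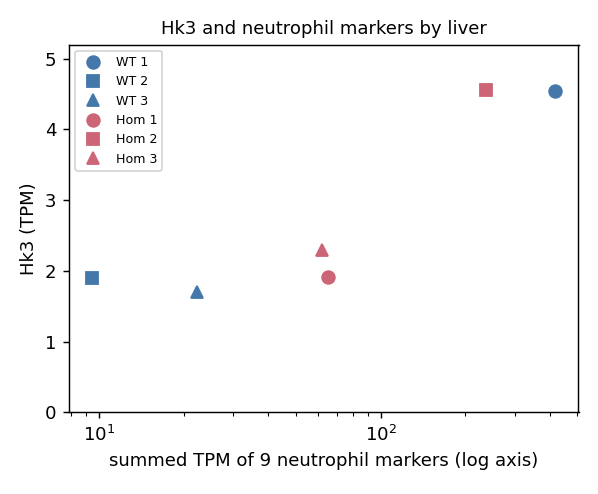
Hk3 (TPM) against the summed TPM of 9 neutrophil markers (log axis) in each liver, with WT in blue and Hom in red. WT replicate 1 and Hom replicate 2 stand at the upper right, with Hk3 at 4.55 and 4.56 TPM, and the other 4 livers have Hk3 between 1.70 and 2.30 TPM.

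A further hexokinase-type gene from the pathway list, Hkdc1, rose by a log2 fold change of 3.24 ± 0.38 (SE, adjusted p = 0.0013, edgeR), on counts of 3 to 6 per WT liver and 44 to 86 per Hom liver. Like Hk2, it was a gene of low counts in every WT liver.

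Phosphofructokinase commits fructose 6-phosphate to glycolysis, and its subunits come in a liver (Pfkl), a platelet (Pfkp) and a muscle (Pfkm) form. Pfkl was at 33.6, 30.7 and 31.5 CPM in WT replicates 1, 2 and 3 and at 40.9, 35.5 and 39.7 CPM in the Hom replicates. Every Hom liver was above every WT liver by a small margin. Pfkl rose 1.21-fold, from 32.0 ± 1.50 to 38.7 ± 2.83 CPM (SD, n = 3 each), a log2 fold change of 0.28 ± 0.085 (SE, adjusted p = 0.0366, edgeR). Of the 5 calls among the members, this one was lost in the most settings: the adjusted p was 0.105 with a correction for gene length (log2 fold change 0.20), 0.0572 with a replicate block, 0.116 without WT replicate 2, 0.0967 without WT replicate 3, 0.0899 without Hom replicate 1 and 0.110 without Hom replicate 3.

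Pfkp, the platelet form that many tumors express, was at 5.42, 3.02 and 5.04 CPM in WT and at 22.1, 6.10 and 8.15 CPM in Hom. All Hom livers were above all WT livers, but Hom replicate 1 stood far above the other two. The mean was 4.49 ± 1.29 CPM in WT and 12.1 ± 8.72 CPM in Hom (SD, n = 3 each), with a log2 fold change of 1.43 ± 0.51 (SE, 95% confidence interval 0.22 to 2.63) and an adjusted p of 0.0593 by edgeR. Without Hom replicate 1, the liver with no counts for the Y-linked genes, the log2 fold change was 0.66 (adjusted p = 0.122, edgeR). Pfkp passed the threshold with DESeq2 (1.43, adjusted p = 0.0096), with library size alone (1.83, adjusted p = 0.0168), with a replicate block (1.26, adjusted p = 0.0305), with the block and a gene length correction (adjusted p = 0.0355) and without Hom replicate 2 (1.74, adjusted p = 0.0365). In GENCODE M21, 748 exon bases of Pfkp, or 5.58%, overlap exons of Pitrm1 on the opposite strand, and the strand setting of the counting is not stated; Pitrm1 was lower in Hom livers (log2 fold change -0.48, adjusted p = 0.0322, edgeR).

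Pfkm, the muscle form, fell by 0.55 on the log2 scale (SE 0.12, adjusted p = 0.0112, edgeR) and was not called with library size alone (-0.10). Within the TPM of the 3 subunits, Pfkm went from 34.2% ± 0.785 in WT to 20.3% ± 2.63 in Hom (SD, n = 3), Pfkl from 56.5% ± 1.77 to 59.5% ± 7.63 and Pfkp from 9.28% ± 2.38 to 20.2% ± 10.2. The Pfkp shares in Hom replicates 1, 2 and 3 were 31.9%, 13.3% and 15.3%.

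Aldolase splits fructose 1,6-bisphosphate, and aldolase A, encoded by Aldoa, is the form of muscle and of most cells outside liver and kidney. Aldoa was at 122, 95.6 and 110 CPM in WT replicates 1, 2 and 3 and at 195, 142 and 136 CPM in the Hom replicates. Each Hom liver exceeded each WT liver, and Hom replicate 1 was highest. Aldoa rose 1.45-fold, from 109 ± 13.2 to 158 ± 32.4 CPM (SD, n = 3 each), a log2 fold change of 0.53 ± 0.16 (SE, adjusted p = 0.0367, edgeR). The adjusted p was above 0.05 when any of 4 livers was left out: 0.121 without WT replicate 2, 0.0904 without WT replicate 3, 0.0569 without Hom replicate 1 (log2 fold change 0.35) and 0.0536 without Hom replicate 2. Aldoart1 and Aldoart2, near copies of Aldoa, had at most 5 and 1 counts in any liver.

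Aldoc, the aldolase known from brain, rose by a log2 fold change of 0.60 (SE 0.20, adjusted p = 0.0491, edgeR).

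Pyruvate kinase makes pyruvate and ATP, and Pkm encodes the M1 and M2 forms, of which M2 is the one known from proliferating cells. The gene-level counts do not separate the M1 and M2 splice forms. Pkm was at 31.9, 20.4 and 34.2 CPM in WT replicates 1, 2 and 3 and at 41.0, 49.1 and 50.0 CPM in the Hom replicates. All Hom livers were above all WT livers, and WT replicate 2 was lowest. Pkm rose 1.62-fold, from 28.8 ± 7.38 to 46.7 ± 4.98 CPM (SD, n = 3 each), a log2 fold change of 0.70 ± 0.19 (SE, adjusted p = 0.0267, edgeR). The adjusted p was 0.0795 without Hom replicate 2 and 0.0843 without Hom replicate 3. In GENCODE M21, 767 exon bases of Pkm, or 15.3%, are shared with Gm49759, a same-strand gene that was not analysed here.

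The liver form Pklr was at 187, 225 and 198 CPM in the WT livers and at 75.2, 194 and 131 CPM in the Hom livers. Hom replicate 2 lay within the WT range, and Hom replicate 1 was lowest. The log2 fold change was -0.61 ± 0.31 (SE, 95% confidence interval -1.34 to 0.12, adjusted p = 0.153, edgeR), and it was -0.98 without Hom replicate 2 (adjusted p = 0.0344) and -0.33 without Hom replicate 1 (adjusted p = 0.205). Exons of Hcn3 on the opposite strand cover 711 bases of Pklr, or 22.0%, and Hcn3 was lower in Hom livers, at 9.94 CPM in WT and 2.90 CPM in Hom (log2 fold change -1.77, adjusted p = 0.0468, edgeR).

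Lactate dehydrogenase interconverts pyruvate and lactate, with the A subunit from Ldha and the B subunit from Ldhb. Ldha was at 789, 713 and 628 CPM in WT replicates 1, 2 and 3 and at 480, 416 and 452 CPM in the Hom replicates. Every Hom liver was below every WT liver. Ldha fell to 63.2% of the WT mean, from 710 ± 80.4 to 449 ± 32.2 CPM (SD, n = 3 each), a log2 fold change of -0.66 ± 0.13 (SE, adjusted p = 0.0081, edgeR). It was called lower in each fit other than that with library size alone, where the log2 fold change was -0.22 (adjusted p = 0.259). Ldha thus stood apart in direction from the 4 members that rose.

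Ldhb, the subunit of heart, was at 3.13, 3.21 and 3.87 CPM in WT and at 3.27, 2.68 and 3.58 CPM in Hom. The groups overlapped. The log2 fold change was -0.10 ± 0.20 (SE, 95% confidence interval -0.58 to 0.38, adjusted p = 0.721, edgeR), and the sign turned with library size alone (0.35, adjusted p = 0.207). Ldhb made up 0.613% ± 0.136 of the TPM of the pair in WT and 0.882% ± 0.0924 in Hom (SD, n = 3). Ldhal6b, a related gene, had at most 7 counts in any liver.

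**Figure D3:**
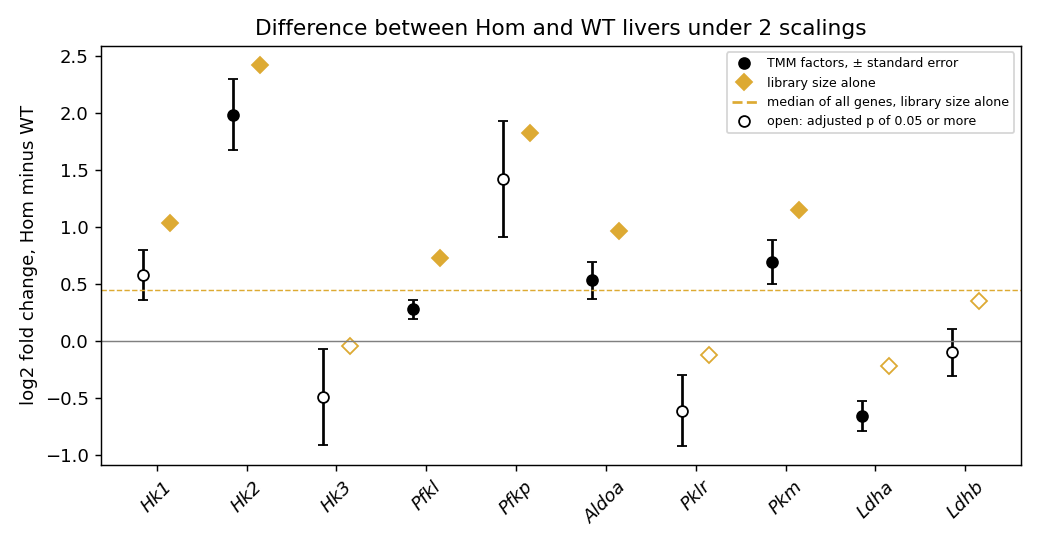
log2 fold change, Hom minus WT, of the 9 isozyme genes and Pklr with TMM factors (black circles, bars are standard errors) and with library size alone (yellow diamonds), where open symbols have an adjusted p of 0.05 or more. The dashed line is the median of all tested genes with library size alone, 0.45, and the diamonds of Hk2, Pfkp, Pkm, Hk1, Aldoa and Pfkl lie above it.

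The ratio of an isozyme to its counterpart in the same liver does not depend on how libraries are scaled against each other. It was computed as the log2 ratio of TPM values, each with a pseudocount of 0.01 TPM added, and compared between groups with an exact two-sided permutation test, for which 3 livers against 3 cannot give a p below 0.1. For the 3 pairs reported here, Pkm to Pklr, Pfkp to Pfkl and Ldhb to Ldha, all Hom livers were above all WT livers, each with an exact p = 0.1 (0.14 after Benjamini-Hochberg adjustment over the 7 ratios that were computed).

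The log2 ratio of Pkm to Pklr was, in replicate order, -2.11, -3.05 and -2.16 in WT and -0.52, -1.60 and -1.02 in Hom, a difference of 1.39 or 2.62-fold. Pkm was 18.9%, 10.8% and 18.3% of the TPM of the pair in WT and 41.1%, 24.8% and 33.0% in Hom, so Pklr remained the larger of the pair in every liver.

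Ldhb to Ldha was -7.61, -7.46 and -7.01 in WT and -6.85, -6.95 and -6.65 in Hom on the log2 scale, a difference of 0.54 or 1.46-fold. Pfkp to Pfkl was -2.44, -3.14 and -2.32 in WT and -0.67, -2.29 and -2.03 in Hom, where Hom replicate 2 was barely above the highest WT liver. That difference was 0.97, or 1.96-fold, and it was 0.47 without Hom replicate 1. With a pseudocount of 1 TPM it was 0.62, and the groups were no longer fully separated (p = 0.2, exact permutation test).

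**Figure D4:**
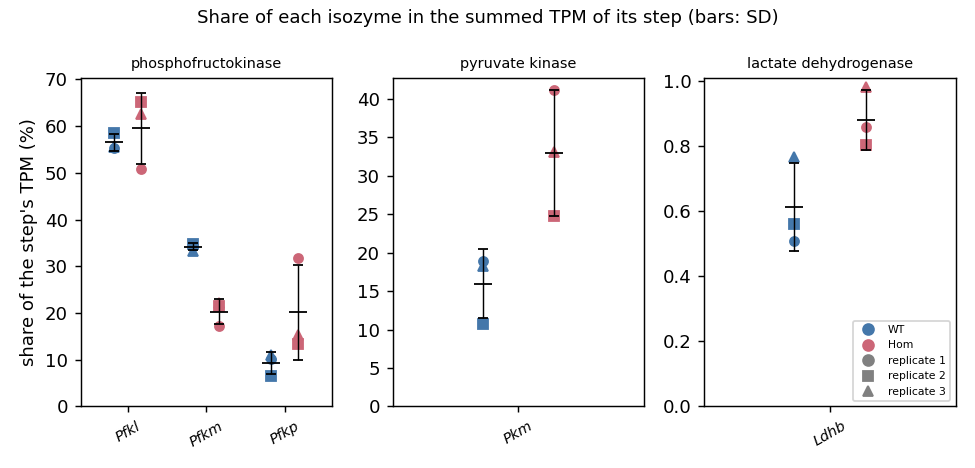
Share of each isozyme in the summed TPM of its step (%, a separate axis from 0 for each step) in 3 WT livers (blue) and 3 Hom livers (red), with symbols for replicates, lines for means and bars for SD. Pklr and Ldha are part of the sums and are not drawn, and the 3 Hom livers lie above the 3 WT livers for Pfkp, Pkm and Ldhb and below them for Pfkm.

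In TPM, which allows genes to be compared, the order of mean levels of the members and Pklr in WT livers was Ldha (655), Aldoa (110), Pklr (101), Pkm (19.3), Pfkl (12.5), Ldhb (3.93), Hk3 (2.72), Hk1 (2.26), Pfkp (2.09) and Hk2 (0.467). The ranges of neighbours overlapped for Aldoa and Pklr, for Pkm and Pfkl, and between each neighbouring pair from Ldhb down to Pfkp, and those neighbours cannot be put in order, although Ldhb lay wholly above Hk1 and Pfkp. Hk2 was the least abundant, its highest WT liver at 0.72 TPM against 1.25 TPM for the lowest WT liver of Pfkp. In Hom livers the order was Ldha (630), Aldoa (241), Pklr (106), Pkm (47.1), Pfkl (23.1), Pfkp (8.22), Ldhb (5.62), Hk1 (5.21), Hk3 (2.93) and Hk2 (2.75). There Aldoa stood above Pklr and Pkm above Pfkl without overlap, while the ranges of neighbours overlapped from Pfkp to Hk2.

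Of the 15 other glycolytic enzymes listed, 13 could be tested, and 4 were higher and 3 lower, with a median log2 fold change of -0.04, against 21.5% higher and 20.1% lower among all genes. The higher genes were Hkdc1, Aldoc, Eno2, the neuronal enolase, which rose from 2 to 3 counts per WT liver to 20 to 28 per Hom liver (log2 fold change 2.79, adjusted p = 0.0032, edgeR), and Bpgm, the bisphosphoglycerate mutase (0.73, adjusted p = 0.0206). The lower genes were Pfkm, Pgk1, the phosphoglycerate kinase (-0.42, adjusted p = 0.0420), and Adpgk, which uses ADP to phosphorylate glucose (-0.31, adjusted p = 0.0486), and the signs of Pgk1 and Adpgk turned with library size alone (0.031 and 0.15). The remaining 6 tested genes did not pass, among them Gapdh with a log2 fold change of -0.36 (adjusted p = 0.0766, edgeR), Tpi1 with 0.10 and Gpi1 with -0.04.

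Among 12 regulators of glycolysis and pyruvate entry, 2 were higher and 4 lower, with a median of -0.20, again beside 21.5% and 20.1% of all genes. Pfkfb4, which makes and breaks down the phosphofructokinase activator fructose 2,6-bisphosphate, rose (log2 fold change 1.51, adjusted p = 0.0028, edgeR), and its liver counterpart Pfkfb1 fell (-1.09, adjusted p = 0.0082). Pdk1, a kinase that inactivates pyruvate dehydrogenase, fell (-1.31, adjusted p = 0.0028). Of the phosphatases that reactivate pyruvate dehydrogenase, Pdp1 rose (1.93, adjusted p = 0.0062) and Pdp2 fell (-0.90, adjusted p = 0.0028). The fourth lower gene was Pfkfb3 (-0.51, adjusted p = 0.0483).

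Of 9 glucose and lactate transport genes, 2 were higher and 1 lower, beside 21.5% and 20.1% of all genes, with a median of 0.34. Slc2a1, the GLUT1 transporter of most cells, rose (log2 fold change 0.55, adjusted p = 0.0269, edgeR), as did Slc2a4, the insulin-responsive GLUT4, at low counts of 3 to 7 per WT liver and 15 to 21 per Hom liver (1.45, adjusted p = 0.0350). Slc2a2, the GLUT2 transporter of hepatocytes, fell (-0.53, adjusted p = 0.0389), and its value was -0.06 with library size alone.

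Lists of markers of other cells and of proliferation are set beside all genes, of which 21.5% were called higher and 20.1% lower. The sums are in TPM, to which no TMM factors were applied, so the groups are compared by the calls. Spp1 was the most abundant cholangiocyte marker, at a mean of 43.3 CPM in WT and 596 CPM in Hom. Of 9 cholangiocyte markers 8 were higher and 0 lower, with summed levels of 52.7 to 97.7 TPM in WT and 873 to 1363 TPM in Hom livers. Of 10 stellate cell and fibroblast markers 5 were higher and 1 lower, with sums of 172 to 257 TPM and 431 to 508 TPM, and of 9 macrophage markers 3 were higher and 1 lower, with sums of 151 to 421 TPM and 518 to 698 TPM, WT replicate 1 being the highest WT liver. Of 9 proliferation genes 8 were higher and 0 lower, with sums of 26.1 to 38.6 TPM and 53.2 to 88.8 TPM. Hepatocyte markers went the other way, with 10 of 15 lower, 0 higher and a median log2 fold change of -0.78, and with library size alone 6 were lower and 1 higher. Endothelial markers were lower for 3 of 7 and higher for 1, with sums of 75.2 to 136 TPM in WT and 64.8 to 77.5 TPM in Hom. Of the 5 lymphocyte markers tested 1 was higher and 0 lower (sums of 3.94 to 10.2 and 10.9 to 22.1 TPM), and of the 6 erythroid markers tested 1 was lower and 0 higher (1021 to 4088 and 2816 to 8006 TPM). The lymphocyte genes called higher and the erythroid genes called lower are near the shares over all genes. Markers of heart and skeletal muscle, tissues rich in Aldoa and Pkm, were too low to test, with sums of 0.54 to 13.0 TPM in WT and 1.32 to 8.72 TPM in Hom. Of the 7 muscle markers listed, Myh6 was not analysed here. No marker that was analysed was at 0 in all livers, and the part of these cell types in the isozyme levels was not tested.

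The genes whose log2 CPM over the 6 livers was most like that of Pkm were B4galt2, a galactosyltransferase (Pearson's r = 0.996), Cfap410 (0.995) and Adcyap1r1, a receptor for the peptide PACAP (0.995). The 6 points fall into the 2 groups and share their libraries, and 163 genes reached an r of at least 0.95, so the likeness is a description only.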

How the data were processed

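Liver RNA was extracted with Trizol and sequenced on the DNBSEQ platform. The authors deposited 1 table of 17975 genes with estimated counts, FPKM and TPM for each liver. The submitters' processing notes name HISAT2 2.0.4, Bowtie2 2.2.5, RSEM 1.2.12 and the build mm9, without their roles, and the annotation and strand setting are not given in the sources used here. The deposited FPKM values, scaled by gene length and library size, served only to recover gene lengths, and the deposited TPM values served for levels, shares and ratios. The deposited columns of group means carry crossed names (the one named for control equals the mean of the Hom livers for all 17975 genes), and they were not used.

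Estimated counts were rounded for edgeR 4.0.16 under R 4.3.3 (filterByExpr, TMM, quasi-likelihood test, no replicate block). Benjamini-Hochberg adjustment ran over all 13805 tested genes, and genes were called under an adjusted p of 0.05 with no minimum fold change. The standard error is the size of the log2 fold change over the square root of F. Alternatives used DESeq2 1.42.0, other scalings, filters, a replicate block, a gene length correction and the omission of each liver. Depth was near equal, and the standard errors of the members ran from 0.085 (Pfkl) to 0.51 (Pfkp), which did not follow the order of their counts. Each sample is a separate mouse by the study's description. Same-numbered WT and Hom livers did not deviate together (correlations -0.11, -0.06 and -0.05), so numbers were not taken as pairs.

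The genes named were the 9 isozymes, Pklr, Nek7, up to 3 genes per direction with the smallest adjusted p from each pathway list, and the 3 genes most correlated with Pkm. Aldoc, Pfkfb3, Gapdh, Tpi1, Gpi1 and the overlapping or near-copy genes fell outside that rule and were named after their values were seen, and so were genes named without a call. Some genes and the ratios that need them are not reported here. The members and lists were chosen with earlier results of these data known. Exon overlaps are from GENCODE M21 (GRCm38) and promoters from RefSeq.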

Additional observations from a re-analysis of the deposited data

How the results depend on the processing

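Hk2 was called higher in each fold-change fit tried, with leave-one-out values of 1.69 to 2.26, and no called member changed direction. Over the 11 single genes (the 9 isozymes, Pklr and Nek7), 126 alternative values kept their direction and side of the threshold, 14 lost the call, 10 gained one and 4 turned sign, all 4 in Ldhb, which was not called. Leaving out 1 liver gave 2 to 4 members called higher: 2 without WT replicate 2 (Hk2, Pkm), without Hom replicate 1 (Hk2, Pkm) or without Hom replicate 3 (Hk2, Aldoa). A minimum absolute log2 fold change of 1 left 1 higher (Hk2) and 0 lower, and library size alone gave 0 lower. The replicate block gave 5 higher (Hk1, Hk2, Pfkp, Aldoa, Pkm) and 1 lower, which loses Pfkl. With the block the 3 ratios kept their values, since the mean of the differences is the same. The log2 fold change of Ldhb was 0.35 with library size alone, 0.023 after correcting for gene length, 0.018 when a replicate block was added to that correction, and -0.19 to 0.0094 when 1 liver was left out. The cause of these shifts was not tested. With 3 livers per group the ratio test cannot pass 0.05, and among the members Pfkp and Hk3 had the largest standard errors (0.51 and 0.42).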

Other observations

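Among 14 transcription and splicing factors known to act on glycolytic genes, 3 were higher and 3 lower in Hom livers, shares close to the 21.5% and 20.1% of all genes, and their median was -0.15 on the log2 scale. Mlxipl, which encodes the glucose-sensing factor ChREBP that acts on Pklr, fell by 1.05 on the log2 scale (adjusted p = 0.0027, edgeR), and so did Hnf4a, a master factor of hepatocytes, by 0.69 (adjusted p = 0.0074) and Epas1, which encodes HIF-2alpha, by 0.63 (adjusted p = 0.0182). With library size alone Hnf4a was at -0.23 and Epas1 at -0.18. Hnrnpa1, one of the splicing factors known to favour the M2 form of Pkm, rose by 0.52 (adjusted p = 0.0076), Srebf1, which encodes the lipogenic factor SREBP-1, by 0.68 (adjusted p = 0.0276) and Arnt, the partner of HIF-1alpha, by 0.31 (adjusted p = 0.0373). Hif1a was at 0.24 (adjusted p = 0.0724), Myc at 0.97 (adjusted p = 0.0595) and Ptbp1, a further Pkm splicing factor, at -0.13 (adjusted p = 0.265), and these 3 were named after their values were seen.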
